A study of Mus musculus with 19 samples.

Results

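Fatty acid uptake and binding in fat cells was followed through 8 genes: Lpl, Gpihbp1, Cd36, Slc27a1, Slc27a4, Fabp3, Fabp4 and Fabp5. They were taken by name, 8 of the 22180 genes with a transcript cluster of their own on the arrays, and all 8 were found. The study asked what MED1 does in fat cells. MED1 belongs to Mediator, a large complex through which DNA-bound regulators reach RNA polymerase II. Total RNA was measured on 19 mouse whole-transcript arrays in 3 experiments.

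In the cell experiment there were 2 arrays each of MED1 knockout cells on day 2, wild-type cells on day 2, knockout cells on day 0 and wild-type cells on day 0 of differentiation. These were 3T3-L1 cells, a mouse fibroblast line that becomes fat-like after a hormone cocktail. The knockout was made with CRISPR/Cas9, and the RNA of individual knockout clones was pooled, so differences that arose in cloning cannot be told apart from loss of MED1. In the adult experiment, interscapular brown fat of mice at 10 weeks carried floxed Med1 alleles with Adipoq-Cre (AdipoqCreMed1f/f, 2 arrays) or the same alleles without a Cre (Med1f/f, 2 arrays). Adipoq-Cre is active in differentiated fat cells. In the embryonic experiment, interscapular brown fat at E17.5 carried Myf5-Cre with both Med1 alleles floxed (Myf5CreMed1f/f, 4 arrays) or with 1 floxed and 1 wild-type allele (Myf5CreMed1f/w, 3 arrays). Myf5-Cre is active in the precursors that muscle and brown fat share, and the embryonic controls carry it too. Whether arrays came from separate cultures, animals or litters is not given in the labels, so p-values measure only the spread between these arrays.

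Days follow the titles of the samples. The source label gives the other day for 4 cell arrays, namely day 2 replicate 1 and day 0 replicate 2 of both lines. Values are the log2 signals the authors deposited, and the 3 experiments were normalized apart, so a level is compared only within a gene and an experiment. The number of arrays limits the precision. The lower quartile of an array, used here as the limit of a dim signal, lay at 3.49 to 3.56 in cells, 2.22 to 2.24 in adult and 2.56 to 2.59 in embryonic brown fat.

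The targeted gene Med1 averaged 7.04 ± 0.06 in knockout and 8.41 ± 0.19 in wild-type cells on day 2 (SD, n = 2 each), 2.59-fold lower (limma, adjusted p = 0.0078). Leaving out either knockout array of day 2 ended this Med1 call (highest adjusted p = 0.0852). In adult fat Med1 averaged 5.21 ± 0.11 in knockout and 6.45 ± 0.64 in control arrays (SD, n = 2 each, adjusted p = 0.19). In embryonic fat it averaged 7.02 ± 0.11 in knockout arrays (SD, n = 4) and 7.37 ± 0.44 in control arrays (SD, n = 3), which overlapped (adjusted p = 0.369). Fat of either age also holds cells in which the Cre is not active.

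Fat cells take up fatty acids from the triglycerides of blood lipoproteins. Lipoprotein lipase, made by Lpl in the fat cell, is carried across the capillary wall by GPIHBP1, an anchor protein of endothelial cells, and frees fatty acids there. CD36 at the plasma membrane binds long-chain fatty acids, and the transport proteins FATP1 (Slc27a1) and FATP4 (Slc27a4) couple uptake to activation with coenzyme A. Inside the cell, small binding proteins carry fatty acids: FABP3, typical of heart, muscle and brown fat, FABP4, the main one of fat cells, and FABP5, also made in macrophages and skin. Several of these genes are known targets of PPARG, a lipid-activated nuclear receptor needed for adipogenesis that contacts Mediator.

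The RefSeq promoter table (build GRCm38.p6) held 6 start sites for 4 of the 8 genes: Cd36, Fabp3, Slc27a4 and 3 starts of Slc27a1. Fabp4, Fabp5, Lpl and Gpihbp1 had no entry. The Cd36 start lies inside the gene, which spans chr5:17781690-17888959, so it is an internal start. The 250 bases before the start are shown for 3 membrane genes that behaved differently in 3T3-L1 cells: Cd36, at the dim limit in cells, Slc27a1, lower on day 2 than on day 0, and Slc27a4, which did not pass a test. Capitals mark every match, on either strand, to AGGTCA (the core site of PPARG and its relatives), AGGTCANAGGTCA (the double site of PPARG, which contains the core site), the TATA box core TATAAA, the CCAAT box or the GC box GGGCGG.
Cd36, chr5:17835897-17836146, minus strand: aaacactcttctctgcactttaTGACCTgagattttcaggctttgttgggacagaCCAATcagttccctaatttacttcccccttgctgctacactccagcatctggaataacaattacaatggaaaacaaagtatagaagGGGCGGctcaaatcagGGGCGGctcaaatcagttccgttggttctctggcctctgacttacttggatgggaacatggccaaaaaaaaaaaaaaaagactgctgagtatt
Slc27a1, the third start, chr8:71570344-71570593, plus strand: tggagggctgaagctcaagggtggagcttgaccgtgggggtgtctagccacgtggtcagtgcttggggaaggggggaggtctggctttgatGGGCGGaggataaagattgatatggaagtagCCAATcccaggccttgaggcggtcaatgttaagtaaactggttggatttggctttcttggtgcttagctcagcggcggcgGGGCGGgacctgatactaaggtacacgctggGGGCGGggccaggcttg
Slc27a4, chr2:29802384-29802633, plus strand: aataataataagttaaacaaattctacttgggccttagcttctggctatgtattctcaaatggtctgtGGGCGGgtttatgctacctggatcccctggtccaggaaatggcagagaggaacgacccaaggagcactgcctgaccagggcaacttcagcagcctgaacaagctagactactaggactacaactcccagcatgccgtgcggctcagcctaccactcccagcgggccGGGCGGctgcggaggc

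Of these 4 genes, Cd36 held a match to AGGTCA, on the opposite strand at -228 to -223 from its internal start. This motif was found in 14.0% of 32851 RefSeq promoter windows of the same length. Cd36 also held a CCAAT (33.8% of windows) at -195 to -191 and GGGCGG (32.7% of windows) at -109 to -104 and -93 to -88. Of the 3 starts of Slc27a1, the one shown held the most matches, GGGCGG 3 times and CCAAT once, while the first held 1 CCAAT and the second 1 GGGCGG, and Slc27a4 held GGGCGG at 2 places. No entry of the 4 genes held the double site AGGTCANAGGTCA (0.0335% of windows) or TATAAA (12.4% of windows), and Fabp3 held none of the 5 motifs. A match describes these letters and is not a measured site.

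In 3T3-L1 cells on day 2, the fat cell binding protein gene Fabp4 was the member that differed between genotypes: it was 4.07-fold lower in knockout than in wild-type cells. Fabp5 and Lpl also had lower mean signals in the knockout arrays, without passing the test (with the replicate block Fabp5 passed, adjusted p = 0.00968), and the 2 transport protein genes and Fabp3 differed by at most 0.15 on the log2 scale. Of the 8 members 1 passed the test (limma, adjusted p under 0.05 over all genes), against 0.266% of all genes in either direction and 0.234% called lower. For 6 of the 8, knockout and wild-type arrays did not overlap, as for 36.4% of all genes. The median log2 fold change was -0.21 over the members and -0.01 over all genes.

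Among the genes at the vessel wall, Lpl read 9.37 and 9.35 in knockout arrays on day 2, against 10.36 and 10.09 in wild-type arrays. Both knockout arrays lay below both wild-type arrays. The log2 fold change was -0.86 ± 0.30 (SE), with a 95% interval of -1.53 to -0.19 and an adjusted p of 0.492. With the replicate number as a block, limma gave Lpl an adjusted p of 0.2. Lpl has 2 transcript clusters. The second read 4.57 and 5.41 in knockout and 4.77 and 6.62 in wild-type arrays on day 2, which overlapped (mean difference -0.71). Gpihbp1 read 5.10 and 5.14 in knockout and 4.81 and 5.03 in wild-type arrays, a difference of 0.20 ± 0.14 (adjusted p = 0.785). The 13 endothelial markers, of the cell type that makes GPIHBP1 in tissue, averaged 4.14 to 4.21 in knockout and 4.21 to 4.31 in wild-type cells on day 2, with 2 to 3 of them under the dim limit in each array.

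Cd36 was near the dim limit in all 8 cell arrays. It read 3.43 and 3.73 in knockout and 3.75 and 3.95 in wild-type arrays on day 2, a difference of -0.27 ± 0.21 (adjusted p = 0.816). Slc27a1, the insulin-responsive transporter gene of fat and muscle, read 6.47 and 6.54 in knockout and 6.42 and 6.57 in wild-type arrays on day 2. The arrays were interleaved, and the 95% interval of the difference ran from -0.43 to 0.45. Slc27a4, the more widely expressed transporter gene, read 6.25 and 6.49 in knockout and 6.42 and 6.61 in wild-type arrays, with an interval of -0.60 to 0.31. Neither interval holds a 2-fold difference between the genotypes.

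Among the binding proteins, Fabp4 read 3.92 and 4.20 in knockout arrays on day 2, against 6.40 and 5.77 in wild-type arrays. The knockout arrays were above the dim limit, and well below both wild-type arrays. The log2 fold change was -2.03 ± 0.24 (limma, adjusted p = 0.0116), with a 95% interval of -2.56 to -1.49. The call was lost, with adjusted p = 0.128, 0.0703 and 0.0507, without knockout replicate 1, knockout replicate 2 or wild-type replicate 1 of day 2. With days by the source label the value was -0.73 (adjusted p = 1).

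Fabp5 read 4.48 and 5.34 in knockout arrays on day 2, against 6.43 and 6.61 in wild-type arrays. The lowest wild-type array was above the highest knockout array by more than the spread within either pair. The log2 fold change was -1.61 ± 0.29, with an adjusted p of 0.0815 and an interval of -2.27 to -0.96. With the replicate number as a block, shared by both days, limma gave Fabp5 an adjusted p of 0.00968. Fabp5 has 4 transcript clusters and near-identical copies in the genome, so probes may read more than the gene itself. Its other 3 clusters had knockout minus wild-type differences of -0.81, -1.59 and -0.47. Fabp3 did not show this: it read 9.88 and 9.89 in knockout and 9.86 and 9.78 in wild-type arrays, with an interval of -0.27 to 0.40.

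**Figure D1:**
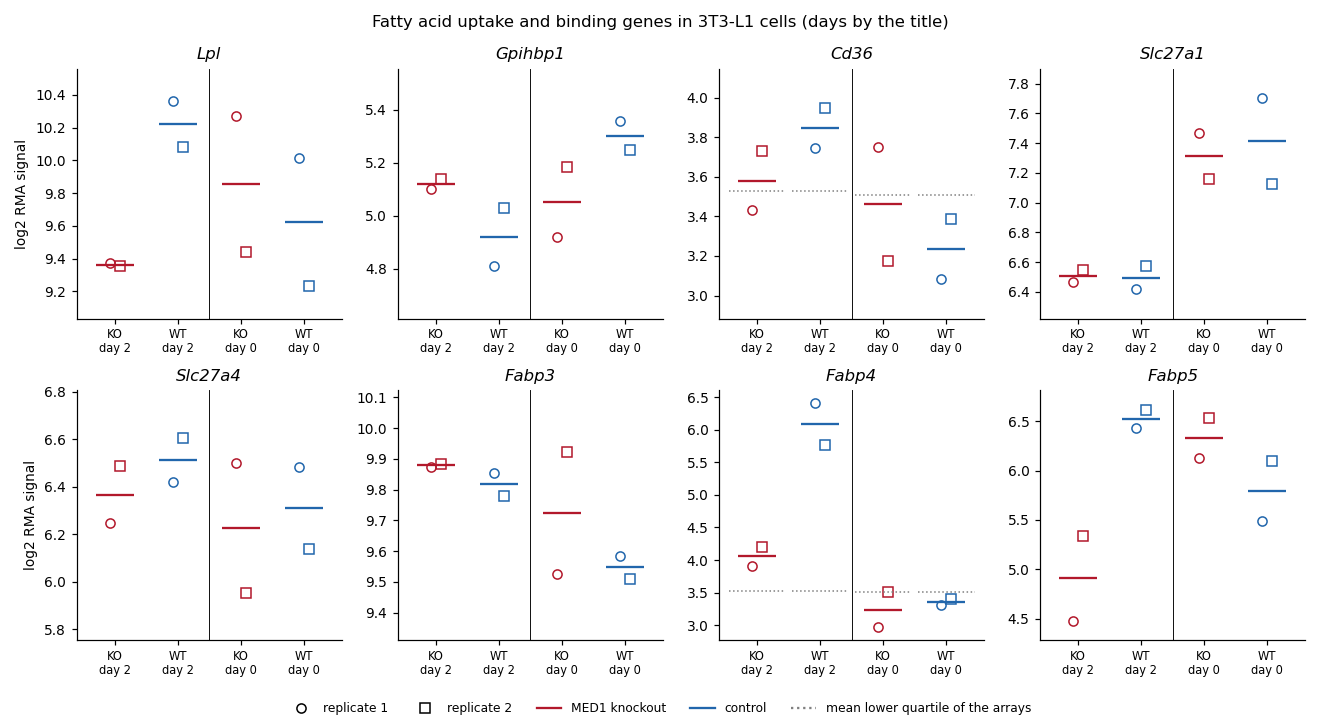
Log2 RMA signal (y axis, own range in each panel) of the 8 genes in 3T3-L1 cells, 1 point per array, with bars at the group means and dotted lines at the mean lower quartile where signals come near it. Fabp4 on day 2 sits at 3.92 and 4.20 in the knockout arrays and at 6.40 and 5.77 in the wild-type arrays, while Slc27a1 has the same low level in both lines on day 2.

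Marker lists moved beside these members on day 2. The 10 adipocyte markers, none of them a member, had a mean signal of 5.09 to 5.15 in knockout and 5.96 to 6.002 in wild-type cells. The 8 preadipocyte and fibroblast markers averaged 9.08 in both knockout arrays and 9.39 to 9.45 in wild-type arrays on day 2. On day 0 they averaged 9.79 to 10.05 in knockout and 10.04 to 10.295 in wild-type arrays. The means of both lists were thus lower in knockout cells on day 2. Of these 8 markers, Dcn and Cd34 passed on day 2 (limma, log2 fold changes of -1.96 and -1.36), and Cd34 also on day 0 (-1.43). Col1a1 averaged 10.97 in knockout and 10.73 in wild-type cells on day 2. Pdgfrb averaged 8.63 and 8.46, so not every marker of this list was lower. The 9 epidermis markers, of a tissue that makes FABP5, averaged 4.65 to 4.79 in knockout and 4.945 to 4.99 in wild-type arrays on day 2. Of these, Krt15 passed (limma, log2 fold change of -1.35, adjusted p = 0.0193), while Krt14 differed by -0.16 (adjusted p = 0.941). Pparg itself averaged 5.86 ± 0.02 in knockout and 7.87 ± 0.10 in wild-type arrays (SD, n = 2 each), and it fell by 2.01 ± 0.13 on the log2 scale (adjusted p = 0.000374). Cebpa, its partner in fat cell formation, fell by 1.36 ± 0.13 (adjusted p = 0.00386, and 0.0555 without knockout replicate 2 of day 2). The part of these genes and lists in the values of Fabp4, Fabp5 and Lpl was not tested.

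On day 0, no member passed the test between knockout and wild-type cells, against 0.185% of all genes, and the 2 groups did not overlap for 2 members, Fabp5 and Gpihbp1, against 34% of all genes. The members' median log2 fold change was 0.05, beside 0.01 for all genes. Fabp5 read 6.13 and 6.53 in knockout and 5.49 and 6.10 in wild-type arrays. Both knockout arrays were the higher ones, by 0.54 ± 0.29 on average (adjusted p = 1). Its other 3 clusters were higher in knockout arrays as well, by 0.29, 0.47 and 0.36. Gpihbp1 read 4.92 and 5.18 in knockout and 5.36 and 5.25 in wild-type arrays.

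Fabp4 was at the floor of the measurement on day 0. It read 2.97 and 3.51 in knockout and 3.30 and 3.40 in wild-type arrays, each under its array's lower quartile, so no fold change is given. Cd36 read 3.75 and 3.18 in knockout and 3.08 and 3.39 in wild-type arrays. Lpl, already well above the dim limit before differentiation, read 10.27 and 9.44 in knockout and 10.01 and 9.23 in wild-type arrays. Here the replicates differed more than the genotypes, since replicate 1 of each line was the higher array. Slc27a1 had the same split by replicate, with 7.47 and 7.16 in knockout and 7.70 and 7.12 in wild-type arrays. Slc27a4 did too, with 6.50 and 5.95 in knockout and 6.48 and 6.14 in wild-type arrays. Fabp3 read 9.53 and 9.92 in knockout and 9.59 and 9.51 in wild-type arrays, and these overlapped. Angptl4, the secreted inhibitor of lipoprotein lipase, was split by replicate in the same way on day 0, with 10.04 and 8.02 in knockout and 9.49 and 7.32 in wild-type arrays. In the second cluster of Lpl replicate 2 was higher, with 4.68 and 5.525 in knockout and 4.89 and 5.06 in wild-type arrays.

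Over all 4 pairs of knockout and wild-type arrays, which both day labels put side by side, no member passed the test, against 0.289% of all genes. The value for Fabp4 was -1.07 ± 0.37 on the log2 scale (adjusted p = 0.313), and Fabp5 and Lpl had -0.54 ± 0.40 and -0.31 ± 0.21 (adjusted p = 0.626 and 0.58). Leaving out 1 pair moved these to between -1.46 and -0.596 for Fabp4, -0.931 and -0.067 for Fabp5, and -0.506 and -0.09 for Lpl. Slc27a1 and Slc27a4 had narrow intervals around no difference, -0.24 to 0.15 and -0.30 to 0.07. The members' median was -0.08, beside 0.00 for all genes. For 3 members, Fabp5, Lpl and Gpihbp1, knockout minus wild type had one sign in both pairs of day 2 and the opposite sign in both pairs of day 0, as for 11.7% of all genes. Other clusters of Lpl and Fabp5 did not all share this. The second cluster of Lpl read 4.68 in knockout and 4.89 in wild type in replicate 1 of day 0. A further cluster of Fabp5 read 4.06 in knockout and 3.88 in wild type in replicate 1 of day 2.

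The difference of the genotype effect between days was tested directly, and no member passed, nor did any of all genes (0% called by limma, 941 genes at an unadjusted p under 0.05). Fabp5 had the largest difference among the members, -2.15 ± 0.41 on the log2 scale (unadjusted p = 0.000468, adjusted p = 0.451). Its pairs differed by -1.95 and -1.28 on day 2 and by 0.64 and 0.44 on day 0. Fabp4 followed with -1.91 ± 0.33 (adjusted p = 0.329), a value that rests on dim day 0 arrays. Lpl had -1.09 ± 0.42 (adjusted p = 1), from pairs at -0.99 and -0.73 on day 2 and at 0.26 and 0.20 on day 0. With the replicate number as a block, limma gave an adjusted p of 0.0934 for Fabp5, 0.297 for Fabp4 and 0.624 for Lpl. Slc27a1 had 0.11 ± 0.28, with an interval of -0.51 to 0.73. The members' median was -0.30 and that of all genes 0.00.

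**Figure D2:**
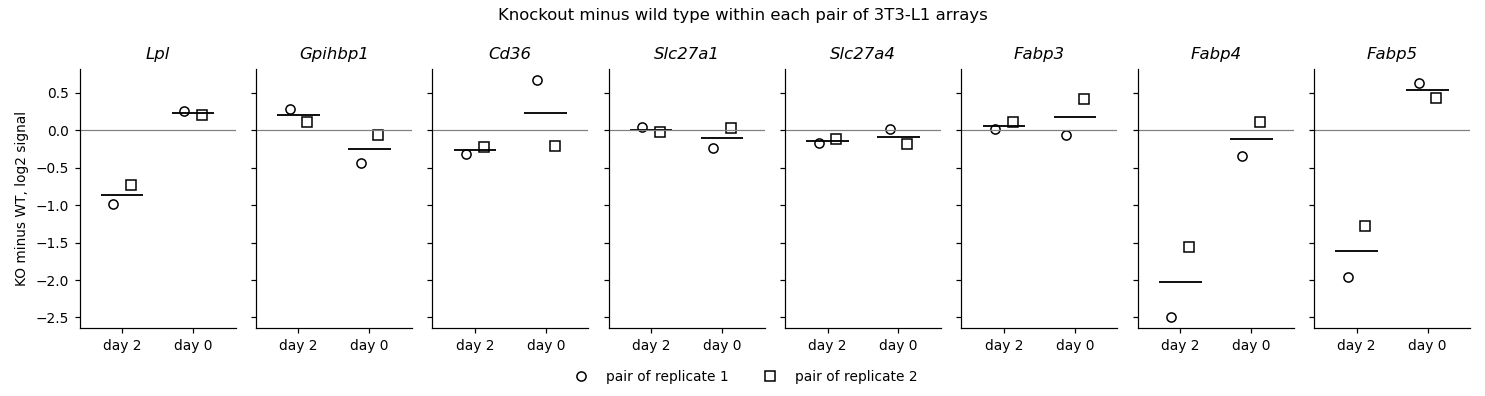
Knockout minus wild-type log2 signal within each pair of 3T3-L1 arrays (y axis, shared), by day and gene, with bars at the mean of each day's 2 pairs. Fabp4, Fabp5 and Lpl lie below 0 in both pairs of day 2, Fabp5 and Lpl lie above 0 in both pairs of day 0, and Slc27a1 and Slc27a4 stay close to 0 throughout.

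The comparison of days asked how the genes change at the start of differentiation. It uses the same day 2 and day 0 arrays as the comparisons of genotypes above. In wild-type cells Fabp4 rose and Slc27a1 fell, and in knockout cells Slc27a1 and Fabp5 fell. Fabp4 was the only member called higher in wild-type cells, 1 of 8 against 3.44% of all genes called higher. Slc27a1 was the only one called lower there, 1 of 8 against 5.64% of all genes called lower (9.07% in either direction). In knockout cells no member was called higher. There 2 of 8 were called lower, against 3.57% of all genes called lower (5.7% in either direction). Day 2 and day 0 arrays did not overlap for 7 of 8 members in wild-type and for 4 of 8 in knockout cells, against 48.7% and 47.9% of all genes. The members' median log2 change was 0.43 in wild-type and 0.09 in knockout cells, beside 0.03 and 0.01 for all genes.

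Fabp4 read 6.40 and 5.77 on day 2 and 3.30 and 3.40 on day 0 in wild-type cells. The day 0 arrays were dim, so a fold against them may be understated. The fitted log2 change was 2.74 ± 0.24, with a 95% interval of 2.20 to 3.27. This is a 6.66-fold higher signal on day 2 (limma, adjusted p = 0.000171). This call held without any 1 of the 4 arrays (adjusted p of 0.000564 to 0.00191). In knockout cells Fabp4 read 3.92 and 4.20 on day 2 and 2.97 and 3.51 on day 0, a difference that did not pass the test (adjusted p = 0.0882). Wild-type day 2 was thus the highest group, and the other 3 groups were not ranked.

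Slc27a1 read 6.47 and 6.54 on day 2 and 7.47 and 7.16 on day 0 in knockout cells. The knockout change was -0.81 ± 0.19, a 1.75-fold lower signal (limma, adjusted p = 0.0446). In wild-type cells Slc27a1 read 6.42 and 6.57 on day 2 and 7.70 and 7.12 on day 0, a change of -0.92 ± 0.19, which is 1.89-fold lower (adjusted p = 0.0185). All 4 day 2 arrays lay below all 4 day 0 arrays, with both lines at nearly one level on day 2. Both calls are sensitive to single arrays. Leaving out any 1 of the 4 knockout arrays gave adjusted p of 0.0857 to 0.277. In wild-type cells, leaving out day 2 replicate 1, day 2 replicate 2 or day 0 replicate 1 gave adjusted p of 0.0867, 0.0597 and 0.0945.

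Fabp5 fell in knockout cells, and its mean in wild-type cells was higher on day 2. In knockout cells it read 4.48 and 5.34 on day 2 and 6.13 and 6.53 on day 0, a log2 change of -1.42 ± 0.29 and a 2.68-fold lower signal (limma, adjusted p = 0.0212). The adjusted p was 0.131 without day 2 replicate 1, 0.0599 without day 0 replicate 1 and 0.147 without day 0 replicate 2. The other 3 clusters of Fabp5 changed by -0.65, -1.37 and -0.21 in knockout cells. The first of these had the highest signal of the Fabp5 clusters in cells. In the last the days overlapped, with 4.06 and 4.25 on day 2 and 4.01 and 4.71 on day 0. In wild-type cells Fabp5 read 6.43 and 6.61 on day 2 and 5.49 and 6.10 on day 0, a difference of 0.73 ± 0.29 that did not pass (adjusted p = 0.172). The test of the difference between these 2 changes is the one given above, with an adjusted p of 0.451.

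Lpl and Cd36 had higher means on day 2 than on day 0 in wild-type cells, by 0.60 ± 0.30 (adjusted p = 0.282) and 0.61 ± 0.21 (adjusted p = 0.113). In knockout cells Lpl differed by -0.49 ± 0.30 (adjusted p = 0.475) and Cd36 by 0.12 ± 0.21 (adjusted p = 0.858). The 3 members left, Gpihbp1, Slc27a4 and Fabp3, had changes of -0.38 to 0.27 over both lines, none past the threshold. With days by the source label, no member passed in either line. Fabp4 then changed by -0.27 in wild-type cells, Fabp5 by 0.63 in knockout cells, and Slc27a1 by -0.12 in knockout and -0.21 in wild-type cells. A group by the source label mixes arrays of both title days.

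Around these members, 51 genes from 4 lists were measured: the other FABP and FATP genes, acyl-CoA synthetases and acyl-CoA binding proteins, partners and inhibitors of lipoprotein lipase with lipoprotein receptors, and genes of membrane and endothelial fatty acid transfer. None of the 51 passed between knockout and wild-type cells on day 2, on day 0 or over the pairs. Between days, 3 rose and 3 fell in each line, 6 of 51, where 5.7% of all genes passed in knockout and 9.07% in wild-type cells. Their median log2 change was 0.01 in knockout and 0.07 in wild-type cells, beside 0.01 and 0.03 for all genes.

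Furin, a protease that cleaves lipoprotein lipase and ANGPTL proteins, rose 1.86-fold in knockout cells (limma, adjusted p = 0.00808) and 2.21-fold in wild-type cells (adjusted p = 0.00154). Lrp1, a receptor for lipoprotein remnants, rose 1.47-fold in knockout and 1.49-fold in wild-type cells (adjusted p = 0.024 and 0.0143). Acsl4, an acyl-CoA synthetase that prefers arachidonic acid, rose 2.01-fold in knockout cells (adjusted p = 0.0317), and Sdc1, a heparan sulfate proteoglycan, rose 1.66-fold in wild-type cells (adjusted p = 0.0195). Vegfb, a growth factor linked to endothelial fatty acid transport in mice, fell 2.08-fold in knockout and 2.06-fold in wild-type cells. Cavin2 and Cavin3, coat proteins of caveolae, fell 2.15-fold and 1.55-fold in knockout cells, and 1.98-fold and 1.46-fold in wild-type cells. Leaving out 1 array in turn, the calls of Vegfb and Cavin2 held in both lines and that of Furin in wild-type cells, while each of the others was lost at least once (highest adjusted p of 0.0733 for Furin in knockout cells, 0.228 for Acsl4, 0.122 for Sdc1, 0.147 for Lrp1 and 0.153 for Cavin3). None of the 11 other FABP and FATP genes passed in any comparison of this report. Slc27a2 had a large uncalled difference in adult brown fat, given below.

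In embryonic brown fat, no member passed the test between Myf5CreMed1f/f and Myf5CreMed1f/w arrays, against 1.16% of all genes. Cd36 and Lpl had lower signals in every knockout array than in any control array, 2 of 8 members against 6.83% of all genes lower without overlap (15.4% in either direction). For Lpl this held in the cluster used here, while in its second cluster the groups overlapped. Fabp4 had a mean difference of -0.17, and Fabp5 and Fabp3 had mean differences of 0.27 and 0.19. The members' median was -0.07, beside -0.01 for all genes. In bulk tissue, fewer cells of a type and less RNA per cell cannot be told apart.

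Lpl read 9.64, 9.83, 9.94 and 9.75 in embryonic knockout arrays, against 10.00, 10.36 and 10.65 in control arrays. The highest knockout array and the lowest control array were close. The log2 fold change was -0.55 ± 0.15 (limma, adjusted p = 0.112), with a 95% interval of -0.90 to -0.19. The second cluster of Lpl read 6.58, 6.44, 6.96 and 6.77 in knockout and 6.95, 6.91 and 7.14 in control arrays. These overlapped, with a mean difference of -0.31. Gpihbp1 read 7.38, 7.34, 7.38 and 7.21 in knockout and 7.30, 7.33 and 7.67 in control arrays, and these overlapped (-0.11 ± 0.10, adjusted p = 0.602). The 13 endothelial markers averaged 6.85 to 7.32 in knockout and 7.03 to 7.51 in control arrays, with none under the dim limit.

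Cd36 read 11.17, 11.25, 11.29 and 11.31 in embryonic knockout arrays, against 11.45, 11.47 and 11.68 in control arrays. The knockout arrays formed a tight group below the controls. The log2 fold change was -0.28 ± 0.07 (limma, adjusted p = 0.0999), a 1.22-fold lower signal. Slc27a1 read 6.21, 6.59, 6.84 and 6.56 in knockout and 6.12, 7.04 and 6.59 in control arrays, which overlapped throughout (interval -0.58 to 0.51). Slc27a4 read 4.995, 5.01, 4.68 and 4.995 in knockout and 4.80, 5.09 and 4.995 in control arrays (interval -0.29 to 0.21).

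Fabp4 read 12.17, 12.11, 12.14 and 12.15 in embryonic knockout and 12.37, 12.17 and 12.39 in control arrays. Knockout replicate 1 and control replicate 2 shared one value, and the difference was -0.17 ± 0.06 (limma, adjusted p = 0.216). The highest signal of any gene was 12.90 to 12.95 on these arrays, so Fabp4 lay close to the top of the scale, where differences may be compressed. Fabp5 read 8.75, 8.52, 8.20 and 8.83 in knockout and 8.36, 8.13 and 8.41 in control arrays (0.27 ± 0.16, adjusted p = 0.393). Fabp3 read 8.53, 8.21, 8.16 and 8.08 in knockout and 8.21, 8.10 and 7.86 in control arrays (0.19 ± 0.13, adjusted p = 0.466).

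The tissue label was checked against markers. The 9 brown adipocyte markers averaged 6.82 to 7.32 in embryonic knockout and 7.96 to 8.53 in control arrays, and none was under the dim limit. Ucp1, the protein of brown fat heat production, averaged 7.63 ± 0.50 in knockout arrays (SD, n = 4) and 10.76 ± 0.77 in control arrays (SD, n = 3), a log2 fold change of -3.14 ± 0.40 (limma, adjusted p = 0.0439). The Ucp1 value was -3.48 to -2.72 without any 1 of the 7 arrays, but the call was lost each time (adjusted p of 0.052 to 0.12) and with the replicate block (adjusted p = 0.113). The 10 adipocyte markers averaged 7.999 to 8.42 in knockout and 8.67 to 9.15 in control arrays. The 15 skeletal muscle markers averaged 6.53 to 6.65 in knockout and 5.16 to 6.12 in control arrays. The 8 preadipocyte and fibroblast markers averaged 8.91 to 9.02 in knockout and 8.29 to 8.61 in control arrays. Fabp3 and Slc27a1 are also genes of muscle, and the part of these markers in the members' values was not tested.

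Control replicate 3 stood apart on these lists. It had the lowest muscle value (5.16) and the highest adipocyte (9.15) and brown adipocyte (8.53) values of the 7 embryonic arrays, and also the highest Lpl and Cd36 and the lowest Fabp3. Without it, Lpl differed by -0.39 ± 0.13 (limma, adjusted p = 0.285), Cd36 by -0.21 ± 0.06 (adjusted p = 0.229) and Fabp3 by 0.09 ± 0.13 (adjusted p = 0.794). Fabp4 then differed by -0.13 ± 0.07 (adjusted p = 0.456) and Fabp5 by 0.33 ± 0.19 (adjusted p = 0.484).

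**Figure D3:**
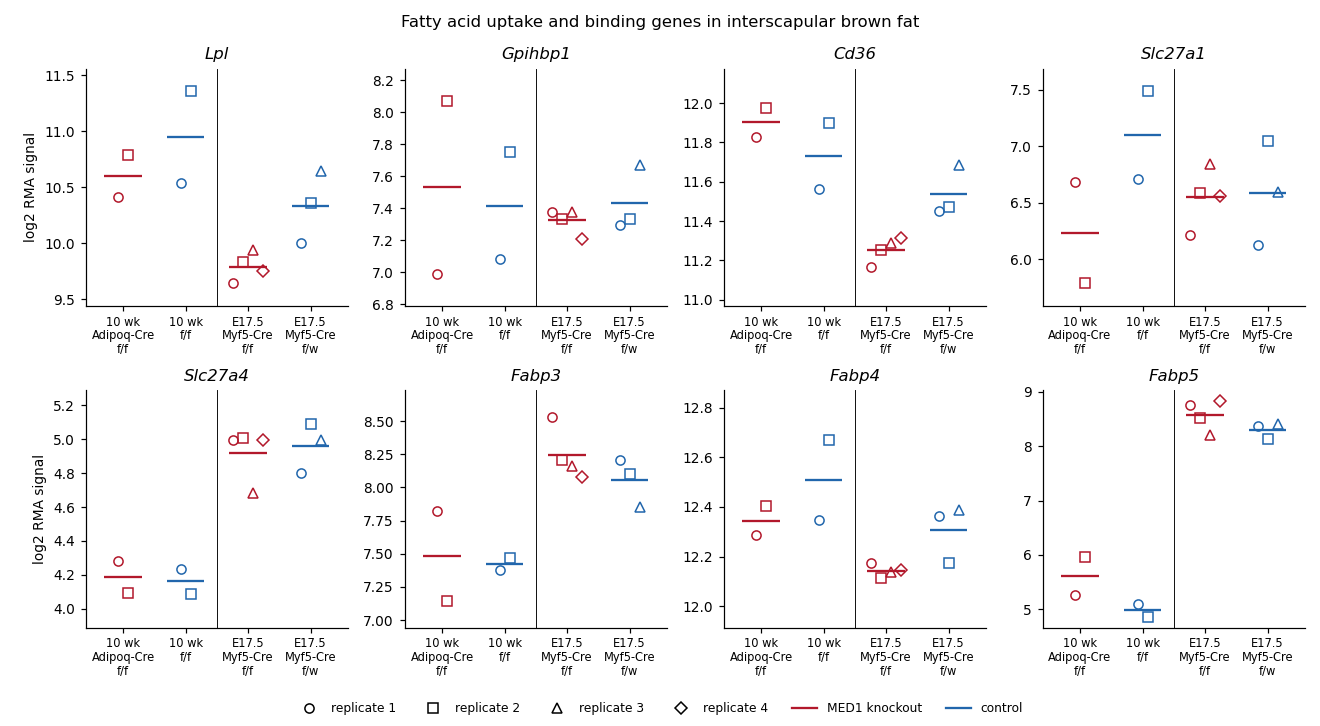
Log2 RMA signal (y axis, own range in each panel) of the 8 genes in adult (left of the line) and embryonic (right of it) interscapular brown fat, 1 point per array, with bars at the group means; the 2 ages were normalized apart. In the embryo the plotted clusters of Lpl and Cd36 are lower in all 4 knockout arrays than in the 3 controls. In the adult Fabp5 is higher in both knockout arrays and Slc27a1 lower.

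In adult brown fat, no member passed the test between AdipoqCreMed1f/f and Med1f/f arrays, against 0.0271% of all genes. The fit has 2 residual degrees of freedom. Groups did not overlap for 2 of 8 members, Fabp5 and Slc27a1, against 41.9% of all genes. The members' median was 0.04, beside 0.00 for all genes. Cd36 and Fabp4, which were bright in all 4 adult arrays, differed by 0.17 and -0.16.

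Lpl read 10.41 and 10.79 in adult knockout and 10.54 and 11.36 in control arrays, with a difference of -0.35 ± 0.31 (limma, adjusted p = 0.737). Gpihbp1 read 6.99 and 8.07 in knockout and 7.08 and 7.75 in control arrays. In both genes replicate 2 of each genotype was the higher array, and genotypes overlapped. Cd36 read 11.83 and 11.98 in knockout and 11.56 and 11.90 in control arrays (0.17 ± 0.17, adjusted p = 0.78).

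Slc27a1 read 6.68 and 5.79 in adult knockout and 6.71 and 7.49 in control arrays. The nearest arrays of the 2 genotypes differed by less than the arrays within either genotype, and the difference was -0.86 ± 0.39 (limma, adjusted p = 0.434), with -1.31 to -0.417 when 1 array was left out. Slc27a4 read 4.28 and 4.09 in knockout and 4.24 and 4.09 in control arrays, with an interval of -0.35 to 0.40.

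Fabp5 read 5.26 and 5.97 in adult knockout arrays, against 5.10 and 4.86 in control arrays. The difference was 0.63 ± 0.26 (limma, adjusted p = 0.393), and the other 3 clusters were higher in knockout arrays too, by 0.36, 0.59 and 0.68. Leaving out 1 array gave 0.281 to 0.988 for Fabp5. FABP5 is also a protein of macrophages, and the 11 macrophage markers averaged 6.78 to 6.89 in knockout and 5.34 to 5.53 in control arrays, with none under the dim limit. Their part in the Fabp5 value was not tested. Fabp4 read 12.29 and 12.40 in knockout and 12.35 and 12.67 in control arrays, where the highest signal of any gene was 13.00 to 13.05. Its difference was -0.16 ± 0.17 (adjusted p = 0.785). Fabp3 read 7.82 and 7.14 in knockout and 7.38 and 7.46 in control arrays, and the control arrays lay between the knockout arrays.

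Of the other adult marker lists, the adipocyte markers averaged 8.002 to 8.22 in knockout and 9.46 to 9.52 in control arrays. The preadipocyte and fibroblast markers averaged 6.92 to 7.16 in knockout and 6.43 to 6.66 in control arrays. The brown adipocyte markers averaged 7.68 to 8.17 in knockout and 8.28 to 9.20 in control arrays. The endothelial markers averaged 5.58 to 5.62 in knockout and 5.65 to 5.80 in control arrays. The 15 muscle markers averaged 2.94 to 3.56 in knockout and 2.99 to 3.99 in control arrays, with 2 to 4 of them under the dim limit.

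**Figure D4:**
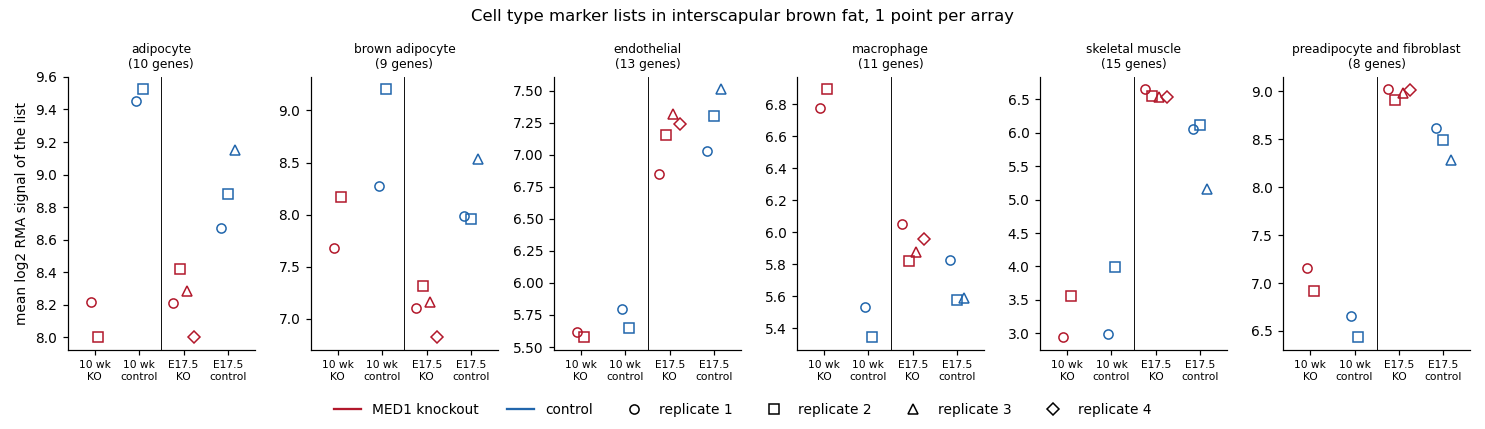
Mean log2 RMA signal of 6 cell type marker lists (y axes, own range in each panel) in adult and embryonic brown fat, 1 point per array. Macrophage markers are higher in both adult knockout arrays (6.78 to 6.89) than in the adult controls (5.34 to 5.53), and muscle markers are higher in the embryonic knockout arrays (6.53 to 6.65) than in the embryonic controls (5.16 to 6.12).

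Whether the knockout effect differed between the adult and the embryonic experiment was tested in a fit of all 11 brown fat arrays. These experiments differ in age, in the Cre and in the control genotype, which cannot be told apart. No member passed, against 1.99% of all genes. Cd36 had an adult knockout effect of 0.17 and an embryonic one of -0.28, a difference of 0.45 ± 0.16 (limma, unadjusted p = 0.0188, adjusted p = 0.198). Slc27a1 had effects of -0.86 in the adult and -0.04 in the embryo, a difference of -0.83 ± 0.46 (adjusted p = 0.42). For Fabp4 the interval of the difference was -0.34 to 0.34, at signals near the top of the scale, where differences may be compressed.

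Among the 51 listed genes, none passed in adult fat. Slc27a2 (FATP2) read 3.67 and 6.10 in adult knockout and 8.26 and 9.65 in control arrays. Its log2 fold change was -4.07 ± 0.88, without passing the test (limma, adjusted p = 0.148). The median over the 11 other FABP and FATP genes was -0.07 in the adult. In embryonic knockout fat, 2 of the 51 fell. Acbd5, an acyl-CoA binding protein of peroxisomes, averaged 7.16 ± 0.14 in knockout arrays (SD, n = 4) and 7.69 ± 0.06 in control arrays (SD, n = 3), 1.45-fold lower (limma, adjusted p = 0.046). Lypla1, a thioesterase that removes palmitate from proteins, averaged 8.12 ± 0.07 in knockout and 8.63 ± 0.03 in control arrays, 1.42-fold lower (adjusted p = 0.036). Both calls were lost without any 1 of the 7 arrays (adjusted p of 0.0579 to 0.142 for Acbd5 and 0.0506 to 0.111 for Lypla1) and with the replicate block (0.118 for Acbd5 and 0.106 for Lypla1). The median over the 51 was -0.09 in the adult and -0.07 in the embryo, beside 0.00 and -0.01 for all genes. The fit over both ages takes 1 spread for both, and in it 3 of the 51 passed for the adult minus the embryonic effect. Acsl5, an acyl-CoA synthetase, had -1.81 ± 0.37 (limma, adjusted p = 0.0361). Apoe, a ligand of lipoprotein receptors, had -0.94 ± 0.21 (adjusted p = 0.0483), and Lypla1 had 0.55 ± 0.12 (adjusted p = 0.0437). When each of the 11 arrays was left out in turn, the call held in 2 cases for Acsl5 and in 1 each for Apoe and Lypla1, so these calls are weak.

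**Figure D5:**
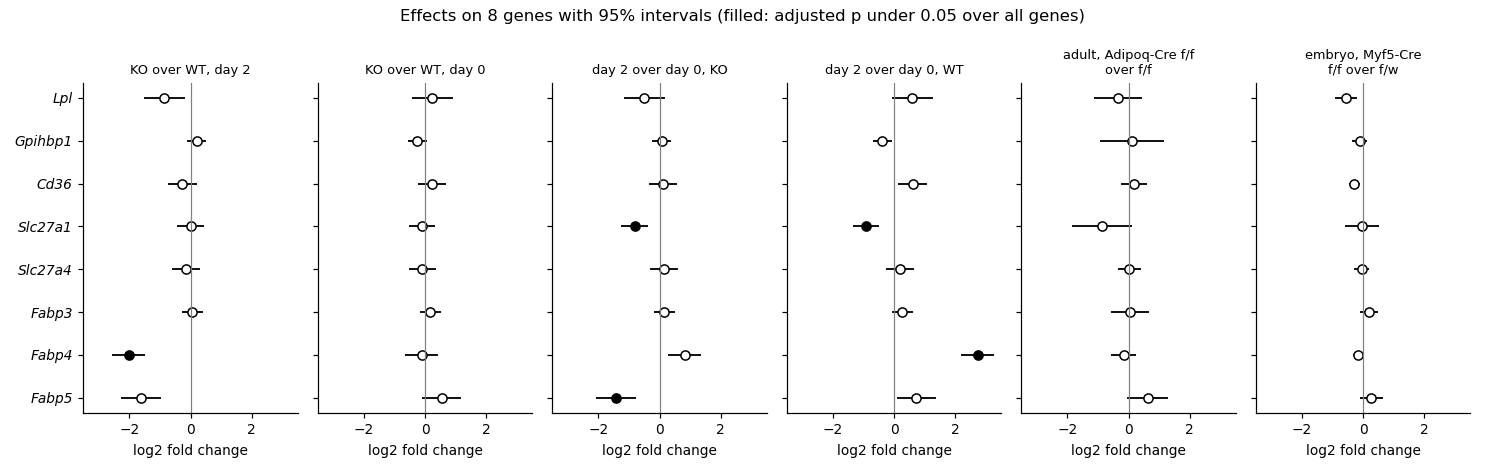
Log2 fold changes (x axis) of the 8 genes in 6 comparisons, with 95% intervals; filled points passed limma at an adjusted p under 0.05 over all genes. The filled points are Fabp4 in knockout over wild-type cells on day 2 (-2.03), Slc27a1 (-0.81) and Fabp5 (-1.42) on day 2 over day 0 in knockout cells, and Fabp4 (2.74) and Slc27a1 (-0.92) on day 2 over day 0 in wild-type cells.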

How the data were processed

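RNA was measured on 19 Affymetrix whole-transcript arrays, prepared with the GeneChip WT PLUS kit per the labels' protocols. The authors deposited log2 signals of 41345 transcript clusters, made with RMA and Transcriptome Analysis Console per the submitters' processing notes. No genome build or annotation is given in the sources used here. RMA corrects background, equalizes the distributions of arrays run together and summarises probes. Of the clusters, 23521 had 1 gene symbol in the platform annotation, 1814 several and 16010 none; for the 1082 genes with over 1 such cluster, the one with the highest mean over the 19 arrays was kept, which left 22180 genes.

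limma 3.58.1 (R 4.3.3) was used for every test, with lmFit and eBayes (two-sided, Benjamini-Hochberg over all 22180 genes, threshold 0.05) and tested on simulated data. Cell comparisons by day came from 1 model of the 4 cell groups. Adult and embryonic fat were fitted apart, and ages were compared over 11 arrays, a fit that made more false calls on simulated data than the others. Values after ± are SE unless SD is written, and intervals are at 95%. Same-numbered knockout and wild-type cell arrays of a day deviated together (correlations of 0.353 on day 0 and 0.296 on day 2) and carry the same source label, so the comparison over 4 pairs has the pair as a block.

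Where all arrays of a group were under their lower quartiles, a fold against it is said to be possibly understated, a rule chosen after the values were known. The members, gene lists and markers were chosen with earlier results of these data known. The 8 members were named whatever their result, as was every pathway list gene past the threshold, up to 6 per comparison. Markers named singly (Pparg, Cebpa, Ucp1, Dcn, Cd34, Col1a1, Pdgfrb, Krt14, Krt15), Slc27a2 and Angptl4 fall outside this rule and were chosen after their values were seen. Alternatives were another normalization, a filter on dim genes, another prior, 1 fit over all arrays, another cluster, the replicate block, the day by the source label, and leaving out each array.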

Additional observations from a re-analysis of the deposited data

Results flagged for a closer look

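Slc27a4 in embryonic knockout brown fat had 1 array far from the others: replicate 3 read 4.68, and its gap to the next array was 0.962 of the range of the 4 knockout arrays. Chance flags about 1 in 20 groups of this kind, and the 3 embryonic control arrays were too few to be examined in this way.

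For 3 members the knockout effect in 3T3-L1 cells had opposite signs on the 2 days in every pair of arrays, in the cluster kept for each gene. Other clusters of Lpl and Fabp5 did not all share this. The effect on day 2 minus that on day 0 was -2.15 for Fabp5, -1.09 for Lpl and 0.451 for Gpihbp1 on the log2 scale, and limma gave adjusted p values of 0.451, 1 and 1. For Cd36 the adult minus the embryonic knockout effect in brown fat was 0.452 (limma, unadjusted p = 0.0188, adjusted p = 0.198). None of these differences passed the test over all genes.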

How the results depend on the processing

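Counts of members called kept to within 1.5 times of the reported ones under the filter on dim genes and the trended and robust prior, in all 9 comparisons, but that filter left Cd36 out in cells. With days by the source label, no member passed on day 2 (0, reported 1), between days in wild-type cells (0, reported 2) or between days in knockout cells (0, reported 2). A fit over all 19 arrays gave 2 members on day 2 (Fabp4 and Fabp5, adjusted p = 0.0117) and 1 for the genotype by day difference (Fabp4, adjusted p = 0.00805). In it Slc27a1 lost its call between days in knockout (adjusted p = 0.172) and wild-type cells (adjusted p = 0.0833), while Fabp4 in knockout (adjusted p = 0.0136) and Cd36 in wild-type cells (adjusted p = 0.0347) gained one. Between days in knockout cells, quantile normalization and the second cluster left 1 member each, Fabp5, where 2 are reported; Slc27a1 then had an adjusted p of 0.071 and 0.0519. Leaving out 1 array gave 0 to 1 members on day 2, 1 to 2 between days in wild-type cells and 0 to 1 between days in knockout cells; the other 6 comparisons had 0 each time. The cause of these changes was not tested, apart from the mixed title days of the source label groups. Of all genes, alternatives that kept every array called 56 to 245 over the pairs (64 reported). They called 1 to 88 on day 0 (41 reported) and 0 to 120 on day 2 (59). In the embryo they called 0 to 1527 (257), in the adult 7 to 2049 (6) and for adult minus embryo 338 to 773 (441). Between days they called 0 to 1660 in knockout cells (1265) and 0 to 2555 in wild-type cells (2012), where each 0 came from the source label, and 0 to 11 for the genotype by day difference (0). Leaving out 1 array or pair called 20 to 32 genes over the pairs, 3 to 25 on day 0, 12 to 38 on day 2, 496 to 605 between days in knockout and 1143 to 1596 in wild-type cells, 0 to 2 for the genotype by day difference, 0 in the embryo and in the adult each time, and 206 to 524 for adult minus embryo, so the shares of all genes given beside the members' counts move with the arrays.

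Without the replicate block, the comparison over 4 pairs gave 1 member (Fabp4, log2 fold change -1.07, adjusted p = 0.0383). For the other comparisons the labels do not say that a number marks a shared culture or litter; same-numbered arrays had correlations of deviations of 0.169 between days in knockout cells, 0.033 between days in wild-type cells, -0.021 to 0.314 in the embryo and 0.335 in the adult. With the replicate block, 2 members passed on day 2 (Fabp4 and Fabp5, Fabp5 with adjusted p = 0.00968) and 3 between days in wild-type cells (Fabp5 with adjusted p = 0.0254). In cells this block gives a replicate number the same shift on both days, unlike the pairs, which are within a day.

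Values whose sign turned were small or uncalled, apart from those of Fabp4 and Fabp5 between days with the source label. By the source label, day 0 values were -0.0198 for Fabp3, -0.657 for Fabp5 and -0.365 for Lpl; wild-type day changes were -0.0747 for Fabp3, -0.273 for Fabp4, -0.528 for Lpl, 0.055 for Gpihbp1 and -0.0796 for Slc27a4. Knockout day changes were 0.631 for Fabp5, -0.139 for Cd36 and -0.153 for Slc27a4, and genotype by day differences were 0.278 for Fabp3, 0.687 for Fabp4, 0.238 for Fabp5 and 0.101 for Lpl. The second cluster of Fabp3 gave -0.0517 over the pairs, -0.00993 on day 0, -0.0934 on day 2, -0.194 in the embryo and -0.511 in the adult. Quantile normalization gave -0.00413 for Slc27a1 on day 2 and -0.00123 for Slc27a4 in the adult.

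Leaving out 1 array or pair turned the sign of the following log2 fold changes, none of them called. Over the 4 pairs the range was Gpihbp1 -0.131 to 0.111, Slc27a1 -0.0772 to 0.016 and Cd36 -0.248 to 0.0784. On day 0 the range was Fabp4 -0.383 to 0.158, Cd36 -0.0603 to 0.514, Lpl -0.187 to 0.648, Fabp3 -0.0221 to 0.375, Slc27a1 -0.39 to 0.188 and Slc27a4 -0.357 to 0.188. On day 2 the range was Slc27a1 -0.0689 to 0.0847. Between days in knockout cells the range was Cd36 -0.168 to 0.406, Fabp3 -0.0431 to 0.354, Gpihbp1 -0.0624 to 0.2 and Slc27a4 -0.132 to 0.413. For the genotype by day difference the range was Slc27a4 -0.335 to 0.211, Slc27a1 -0.18 to 0.398 and Fabp3 -0.313 to 0.0843. In the embryo the range was Slc27a1 -0.269 to 0.193, Slc27a4 -0.122 to 0.0372 and Gpihbp1 -0.176 to 0.0114. In the adult the range was Fabp3 -0.28 to 0.396, Slc27a4 -0.0698 to 0.119, Gpihbp1 -0.427 to 0.656 and Lpl -0.758 to 0.061. For adult minus embryo the range was Slc27a4 -0.0279 to 0.161, Fabp3 -0.471 to 0.206, Fabp4 -0.16 to 0.164, Gpihbp1 -0.319 to 0.764 and Lpl -0.212 to 0.607.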

Other observations

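The genes whose signals followed each member most closely were found over the 19 arrays, after every gene was set to mean 0 and SD 1 within each experiment. Pearson correlations are a description, without a p, since arrays of an experiment share their normalization and their groups. Lpl ran closest to Vldlr (0.89), the receptor that holds triglyceride-rich lipoproteins beside it at the vessel wall, Gpam (0.858), the first enzyme of glycerolipid synthesis, and Setd4 (0.821). Cd36 ran closest to Tgoln1 (0.845), Cpt2 (0.841), the mitochondrial enzyme that readies acyl groups for oxidation, and Tex2 (0.841). Fabp4 ran closest to Scp2 (0.907), a lipid carrier of peroxisomes, Tmed5 (0.9) and Ptcd3 (0.899), a mitochondrial translation protein.

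Slc27a1 ran closest to Dyrk1a (0.912), Kif1c (0.885) and Hdac5 (0.882), and Slc27a4 to Ccnq (0.773), Serpina6 (0.761) and Arf3 (0.758). Fabp5 ran closest to Lsm6 (0.854), Cdk2ap1 (0.837) and Lin9 (0.836). Fabp3 ran closest to Ckb (0.822), the creatine kinase of brain and brown fat, Dlx5 (0.819) and Csf2ra (0.797). Gpihbp1 ran closest to Vgf (0.915), Calb2 (0.787) and Aadacl2fm3 (0.771). Among the members themselves, the correlation was 0.638 for Fabp4 and Cd36 (0.614 in cells and 0.793 in the embryo), 0.607 for Fabp4 and Lpl (0.43 in cells and 0.621 in the embryo) and 0.621 for Cd36 and Lpl (0.411 in cells and 0.941 in the embryo). Fabp4 and Fabp5 had 0.002, with 0.342 in cells and -0.187 in the embryo. Cd36, and Fabp4 on day 0, were near or under the dim limit in cells.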
